A study of Mus musculus with 8 samples.

Results

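The genes described here are 40 mouse genes that encode chaperones, disulfide-forming enzymes, degradation factors, stress sensors and protein import factors of the endoplasmic reticulum (ER). They were taken from the arrays by gene name and each was read from its brightest probe. Of the 40 genes, 39 had a probe that passed the filter on dim signals, among 14783 genes tested in all. The one left out was Derl3, a paralog of the degradation factor Derl1, whose probe was not well above background on any array. Of the 39, 18 were read by more than 1 kept probe.

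RAW264.7 cells, a macrophage-like line of BALB/c mouse origin, received 100 bacteria per cell of either strain MTCC-10307 of Lactobacillus acidophilus or strain MTCC-8326 of Bacillus clausii for 1, 2, 4 or 6 h. Each of 8 two-colour arrays set Cy5-labelled RNA of treated cells against Cy3-labelled RNA of untreated cells of the same time. Equal amounts of RNA from 3 cultures were pooled first, so each bacterium and time has 1 array and no replicate. Each slide carried 1 bacterium, and the position on the slide followed the time on both slides, so bacterium and slide, and time and position, cannot be told apart. No dye swap was made. A constant dye effect would enter every mean response to a bacterium but would cancel in differences between times or bacteria. The sources used here do not say whether both bacteria were set against 1 untreated pool.

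Of 9 macrophage markers, 8 were well above background in both channels on all 8 arrays, and Itgam was on 5 arrays in the treated and 3 in the untreated channel. No marker of B cells, T cells, fibroblasts, epithelial cells or neutrophils reached that on all arrays in both channels. Between 39.6% and 51.5% of probes were well above background in the treated channel and between 42.2% and 47.4% in the untreated channel, and no spot was saturated. The number of arrays limits the precision.

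Proteins that are secreted or held in membranes enter the ER through the Sec61 channel, lose their signal peptide, and fold with the help of chaperones and of enzymes that form disulfide bonds. Chains that fail to fold are moved back to the cytosol and degraded, a route called ER-associated degradation (ERAD). When unfolded chains accumulate, the sensors Ire1 (gene Ern1), Perk (Eif2ak3) and Atf6 are activated, Ire1 splices the Xbp1 RNA, and transcription of many chaperone and ERAD genes increases. In macrophages this unfolded protein response is known to interact with signalling from Toll-like receptors. The probes measure the amount of an RNA and cannot show splicing, cleavage or phosphorylation of the sensors.

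Atf6 and Nfy bind the ER stress response element (ERSE), with the letters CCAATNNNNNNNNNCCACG. A second element, ERSE-II, has the letters ATTGGNCCACG. The 250 bases before the gene start were read from RefSeq promoters of build GRCm38.p6, which held a window for 34 of the 40 genes, and both strands were searched. An ERSE was present in 9 of the 34 genes (26.5%), against 35 of 27025 genes with a window (0.13%). ERSE-II was present in 1 of the 34, Herpud1, against 10 of the 27025 genes (0.037%). The letters TGACGTGG of an Xbp1-type element (UPRE) and TGATGNAAT of an Atf4 composite element occurred in none of the 34 windows, and in 0.603% and 0.91% of all genes. ERSE, ERSE-II and UPRE share the letters CCACG or their complement, so their matches could overlap, but no window of these genes held more than 1 kind. A match is a run of letters in a window, not evidence of binding.

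The windows of 5 genes are printed because they belong to genes that carry the time pattern described below, with the matched letters of ERSE or ERSE-II in capitals. They lie at chr2:34771840-34772089 (plus strand), chr10:86705445-86705694 (minus strand), chr12:17266339-17266588 (plus strand), chr8:94386179-94386428 (plus strand) and chr19:6046326-6046575 (plus strand), each upstream of its gene and written 5′ to 3′ on the strand of the gene.
Hspa5: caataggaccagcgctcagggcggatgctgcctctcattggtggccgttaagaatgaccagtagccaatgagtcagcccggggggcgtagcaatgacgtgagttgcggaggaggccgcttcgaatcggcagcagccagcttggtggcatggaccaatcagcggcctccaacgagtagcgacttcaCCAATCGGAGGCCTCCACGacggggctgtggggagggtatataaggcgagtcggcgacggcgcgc
Hsp90b1: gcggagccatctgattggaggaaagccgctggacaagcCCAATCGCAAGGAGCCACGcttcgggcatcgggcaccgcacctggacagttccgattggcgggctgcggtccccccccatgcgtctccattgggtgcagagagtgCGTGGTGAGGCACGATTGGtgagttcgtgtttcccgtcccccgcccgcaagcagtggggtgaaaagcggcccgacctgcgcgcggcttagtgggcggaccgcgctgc
Pdia6: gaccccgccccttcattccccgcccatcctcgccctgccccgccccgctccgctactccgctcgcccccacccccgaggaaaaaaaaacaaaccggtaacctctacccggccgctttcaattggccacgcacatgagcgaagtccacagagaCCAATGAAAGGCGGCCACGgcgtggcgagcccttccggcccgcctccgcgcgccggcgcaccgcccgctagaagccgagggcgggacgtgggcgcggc
Herpud1: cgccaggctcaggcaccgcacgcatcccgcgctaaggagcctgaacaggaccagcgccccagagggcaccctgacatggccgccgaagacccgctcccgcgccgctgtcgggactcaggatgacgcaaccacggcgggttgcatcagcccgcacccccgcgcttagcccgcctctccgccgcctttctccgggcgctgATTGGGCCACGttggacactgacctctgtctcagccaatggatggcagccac
Syvn1: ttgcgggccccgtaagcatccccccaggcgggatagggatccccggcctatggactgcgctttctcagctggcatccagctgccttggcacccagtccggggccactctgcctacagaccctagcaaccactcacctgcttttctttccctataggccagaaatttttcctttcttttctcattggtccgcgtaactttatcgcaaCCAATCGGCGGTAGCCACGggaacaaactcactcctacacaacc

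The Hspa5 match lies 65 to 47 bases before the gene start and that of Syvn1 44 to 26 bases before it. Hsp90b1 holds 2 matches, 1 on each strand. The remaining ERSE matches are given as read 5′ to 3′ on the strand of the motif, to show how the spacer differs while the ends in capitals stay the same.
Calr: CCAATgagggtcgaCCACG
Canx: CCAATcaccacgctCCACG
Creld2: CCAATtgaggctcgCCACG
Dnajc3: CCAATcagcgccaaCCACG
Derl3: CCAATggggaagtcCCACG

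All values that follow are log2 ratios of treated over untreated cells, so 0 means equal signal and 0.58 is a 1.5-fold higher signal in treated cells. Ratios of the 39 genes were mostly above 0 early and dropped by 6 h with both bacteria. Their median on the L. acidophilus arrays was 0.34, 0.20, 0.12 and -0.18 in the order of 1, 2, 4 and 6 h. On the B. clausii arrays it was 0.38, 0.26, 0.16 and -0.014. The median of all genes stayed between 0.00054 and 0.021 on every array. At 1 h 35 of the 39 genes were above 0 with each bacterium (54.2% of all genes with L. acidophilus and 50.1% with B. clausii). At 6 h 11 were above 0 with L. acidophilus (52.7% of all genes) and 17 with B. clausii (53.3%). In bulk RNA of this kind, fewer responding cells and less RNA per cell cannot be told apart.

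On single arrays, which have no replicate, members past 1.5-fold were counted without a test. With L. acidophilus, 6 genes were past 1.5-fold higher at 1 h (1.56% of all genes were), 6 at 2 h (0.927%), 3 at 4 h (0.981%) and 0 at 6 h (1.68%). The B. clausii arrays had 13 at 1 h (3.2% of all genes), 7 at 2 h (1.33%), 6 at 4 h (1.54%) and 1 at 6 h (2.66%), the last being Os9. Past 1.5-fold lower were Herpud1 on both 6 h arrays and Dnajb9 on that of B. clausii, and no member was on the 6 other arrays. The share of all genes past 1.5-fold lower was 0.399%, 0.413%, 0.474% and 1.12% in time order on the L. acidophilus arrays and 2.59%, 0.974%, 1.2% and 3.52% on those of B. clausii. Hspa5, Hsp90b1 and Pdia6 were past 1.5-fold higher on all arrays of 1, 2 and 4 h with both bacteria by their brightest probes. A second, also bright probe of Hsp90b1 was lower with B. clausii, at 0.14 after 2 h and -0.23 after 4 h. With the processed signals the members past 1.5-fold higher were 4, 2, 1 and 1 in time order on the L. acidophilus arrays, against 8.19%, 6.45%, 6.83% and 8.53% of all genes, and 10, 6, 2 and 0 on the B. clausii arrays, against 9.32%, 8.62%, 9.52% and 10.3%. By those signals Hspa5 was past it on 5 of the 6 arrays of 1, 2 and 4 h, Pdia6 on 3 and Hsp90b1 on 1. With ratios centred on the array median instead of loess, the median of all genes moved to -0.46 on the 1 h array of B. clausii and -0.25 on its 2 h array, where that of the 39 genes turned to -0.37 and -0.13. Relative to all genes, the 39 genes remained higher at 1, 2 and 4 h and lower at 6 h with both bacteria under both normalizations.

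**Figure D1:**
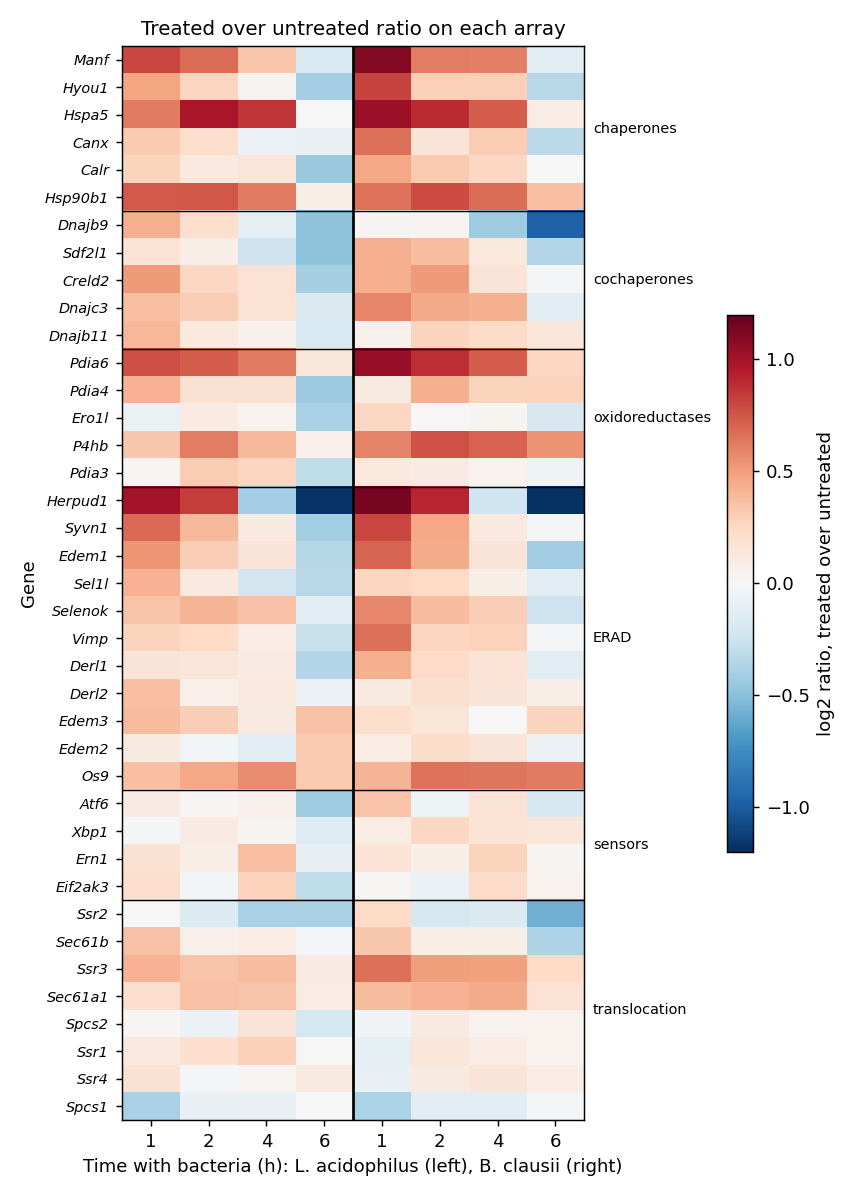
Log2 ratio of treated over untreated cells for each of the 39 measured genes (rows, grouped by role) on each of the 8 arrays (columns, hours with L. acidophilus on the left and B. clausii on the right). Red is higher and blue lower in treated cells. Most rows are red at 1 h and paler or blue at 6 h, with Herpud1 at -1.18 and -1.19 at 6 h. With median centring the median of the B. clausii columns shifts towards blue, to -0.37 at 1 h.

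The change in time was tested as the late response (mean of 4 and 6 h) minus the early response (mean of 1 and 2 h) over both bacteria, in a limma fit with bacterium and time across all genes. By this test 21 of the 39 genes were lower late than early (12.3% of all genes were), and 1, Spcs1, was higher (12.2%). The members' median difference was -0.26, against 0.0022 for all genes. In 8 of the 39 all 4 late arrays lay below all 4 early arrays (7.93% of all genes), and in 0 above (8.18%). The 8 were Herpud1, Dnajb9, Manf, Syvn1, Edem1, Creld2, Pdia6 and Sel1l. The error in this fit comes from how far the bacteria differ at the same time. When instead the 2 times of a phase served as the spread, 6 of the 39 genes were lower (2.75% of all genes) and 0 higher (2.87%), namely Herpud1, Dnajb9, Edem1, Sdf2l1, Sel1l and Syvn1. Centred on the array median, 20 of the 21 kept their direction and 7 remained called, with the processed signals all 21 kept it and 11 remained called, and without both 6 h arrays 5 did. Without the 2 h L. acidophilus array, or without both 1 h arrays, 13 of the 39 genes were called. Shares of all genes called in these other settings are not given, so the counts there are not read as particular to the members.

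**Figure D2:**
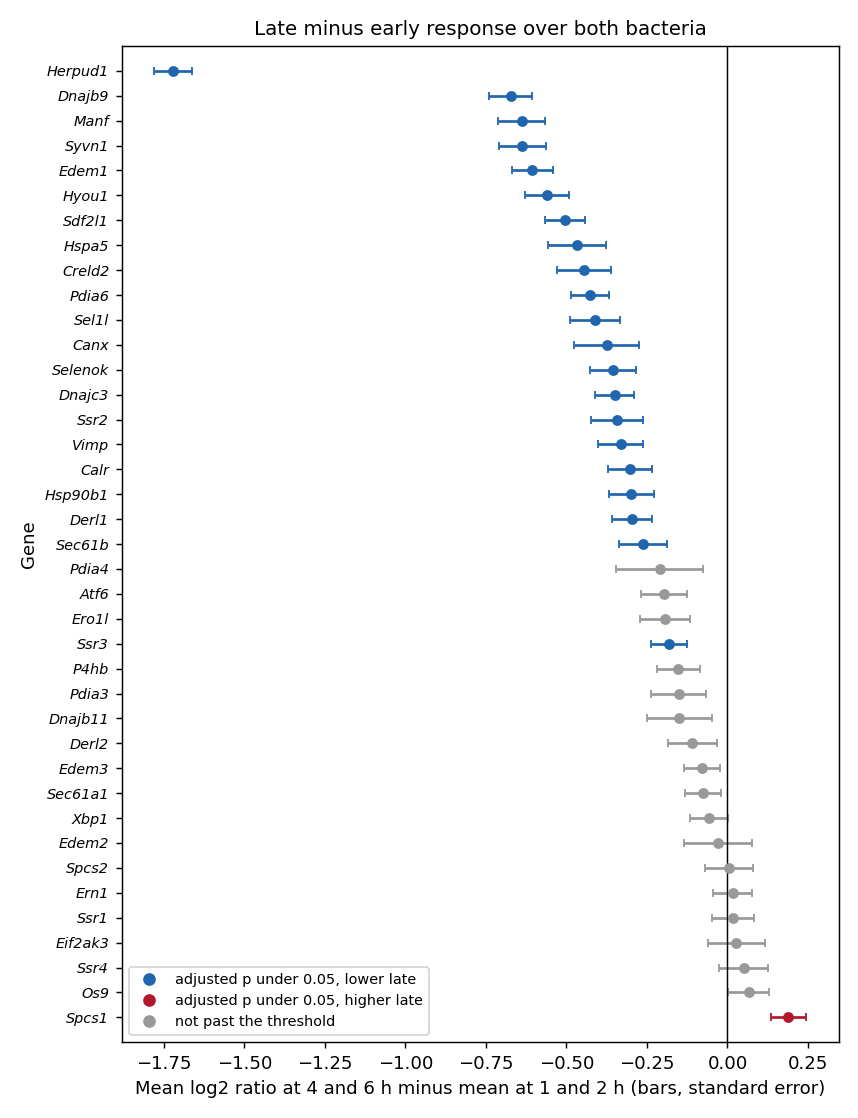
Late (4 and 6 h) minus early (1 and 2 h) log2 ratio of each of the 39 genes over both bacteria, with the standard error of the limma fit as bars. Points in blue were lower late and the 1 in red higher late at an adjusted p under 0.05. Herpud1 stands at -1.72 and the next gene, Dnajb9, at -0.67. With median centring Ssr3 turns to 0.025.

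All 6 chaperones were lower late than early. Hspa5 encodes BiP, the ER member of the Hsp70 family. Its ratios at 1, 2, 4 and 6 h were 0.63, 0.98, 0.86 and 0.0035 after L. acidophilus and 1.04, 0.90, 0.73 and 0.092 after B. clausii. It was high on the arrays of 1, 2 and 4 h and near 0 at 6 h on both, so late and early arrays overlap. By limma the late minus early difference was -0.47 ± 0.090 (adjusted p = 0.00726) and 6 h minus 4 h was -0.74 ± 0.13 (adjusted p = 0.0258).

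Hsp90b1 encodes Grp94, the ER Hsp90. By its brightest probe it gave 0.74, 0.74, 0.62 and 0.070 on the L. acidophilus arrays and 0.65, 0.78, 0.67 and 0.36 on the B. clausii arrays. That course was flat to 4 h and lower at 6 h. The second kept probe was lower at each later time, with 0.64, 0.45, 0.34 and -0.46 after L. acidophilus and 0.59, 0.14, -0.23 and -0.98 after B. clausii. Limma put late minus early at -0.30 ± 0.070 (adjusted p = 0.0159), and the 2 kept probes of the gene gave -0.30 and -0.79. Manf, a small ER protein that binds BiP and can be secreted, had ratios of 0.81, 0.67, 0.33 and -0.18 after L. acidophilus and 1.10, 0.61, 0.61 and -0.12 after B. clausii. Its value was highest at 1 h and below 0 at 6 h on both slides, with late minus early at -0.64 ± 0.073 (adjusted p = 0.000843) in limma. Hyou1 encodes Grp170, which exchanges nucleotide on BiP. It showed 0.48, 0.26, 0.036 and -0.41 on the L. acidophilus arrays and 0.81, 0.28, 0.29 and -0.33 on the B. clausii arrays, and late minus early was -0.56 ± 0.068 (adjusted p = 0.00113) by limma. Both 6 h arrays were below 0 and both 1 h arrays above it. By the processed signals the 6 h values with B. clausii were above 0, at 0.079 for Hyou1 and 0.21 for Manf.

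The lectin chaperones Calr and Canx, which bind sugars on newly made glycoproteins, had smaller differences. Calr differed by -0.30 ± 0.069 (adjusted p = 0.0137) and Canx by -0.38 ± 0.10 (adjusted p = 0.0274) late minus early in limma. A second probe of Calr had a difference of -0.44. The 3 kept probes of Canx ranged between -0.38 and 0.0023, so the call for Canx rests on its brightest probe.

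Of the 5 cochaperones 4 were lower late. Dnajb9 encodes ERdj4, a J protein that binds BiP and represses Ire1. Its ratios were 0.43, 0.20, -0.11 and -0.48 after L. acidophilus and 0.035, 0.034, -0.42 and -0.97 after B. clausii. It stood above 0 early and below 0 late with L. acidophilus, while with B. clausii this probe was near 0 early. The other 2 kept probes stood at 0.47 and 0.55 at 1 h with B. clausii, and all 3 were below 0 on the 4 late arrays. Its late minus early difference was -0.67 ± 0.067 (adjusted p = 0.000469) by limma, and its 3 kept probes ranged from -0.86 to -0.64. Sdf2l1, a partner of BiP and its J proteins, had 0.17, 0.081, -0.25 and -0.48 on the L. acidophilus arrays and 0.43, 0.37, 0.12 and -0.35 on the B. clausii arrays. It was below 0 at 4 h with L. acidophilus and at 6 h with both bacteria, and late minus early was -0.50 ± 0.062 (adjusted p = 0.00113) in limma.

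Creld2, a secreted ER protein induced by stress, differed by -0.45 ± 0.084 (adjusted p = 0.00653) late minus early. For Dnajc3, which encodes the J protein p58IPK and is known to restrain Perk, limma gave -0.35 ± 0.060 (adjusted p = 0.00451). The 4 kept probes of Dnajc3 ranged from -0.35 to -0.023, with the brightest the most negative. Dnajb11, encoding the J protein ERdj3, did not pass at -0.15 ± 0.10 (adjusted p = 0.319). Its ratio was 0.40 with L. acidophilus and 0.052 with B. clausii at 1 h.

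Among the 5 oxidoreductases only Pdia6 was lower late. Pdia6, a protein disulfide isomerase that also attenuates Ire1, had ratios of 0.78, 0.73, 0.62 and 0.13 after L. acidophilus and 1.04, 0.89, 0.72 and 0.25 after B. clausii. All 8 values lay above 0, and late minus early was -0.43 ± 0.058 (adjusted p = 0.00176) by limma. Its 4 kept probes ranged from -0.80 to -0.066. P4hb encodes the founding protein disulfide isomerase. It was at 0.32, 0.62, 0.39 and 0.060 on the L. acidophilus arrays and 0.60, 0.77, 0.71 and 0.54 on the B. clausii arrays, with late minus early at -0.15 ± 0.067 (adjusted p = 0.132). The 6 h value of P4hb with B. clausii stayed close to its 1 h value, unlike that with L. acidophilus. Pdia3, Pdia4 and Ero1l (now Ero1a, the oxidase that recharges disulfide isomerases) had differences of -0.15, -0.21 and -0.19, none past the threshold.

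**Figure D3:**
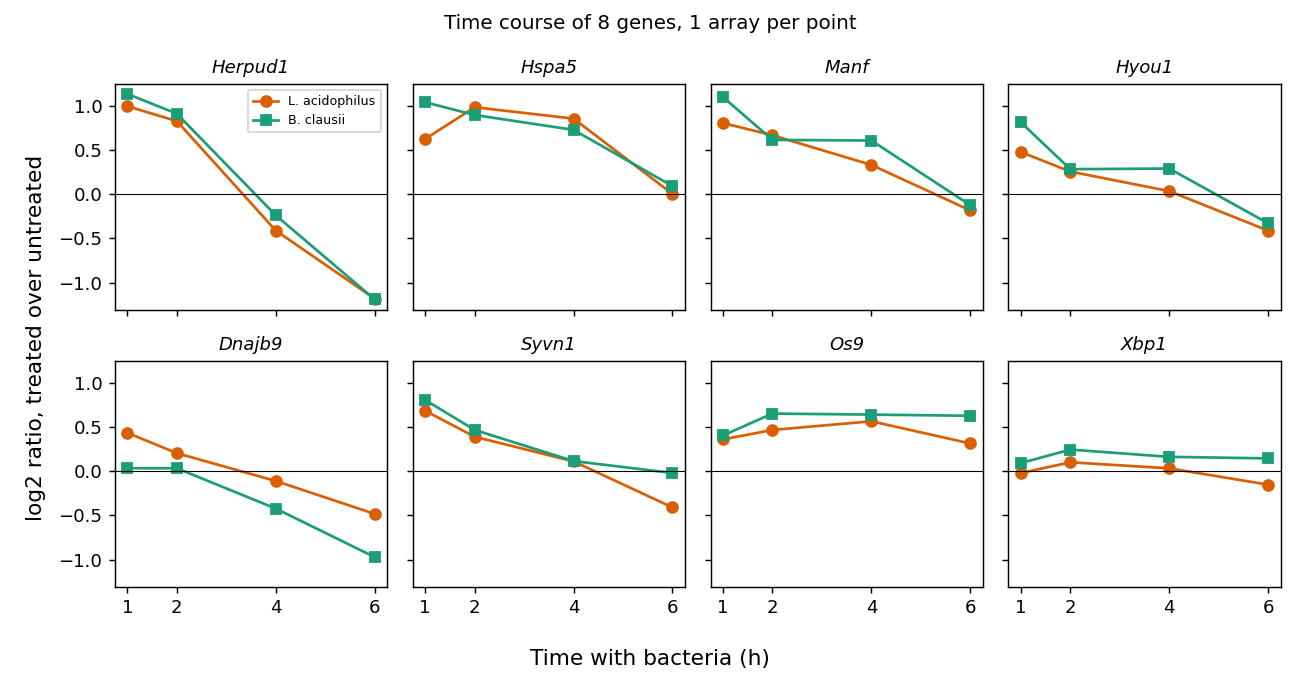
Log2 ratio of treated over untreated cells against hours with bacteria for 8 of the genes, 1 array per point, with L. acidophilus as orange circles and B. clausii as green squares. Herpud1 crosses 0 between 2 and 4 h, Hspa5 comes near 0 only at 6 h, and Os9 and Xbp1 stay within a narrow range. Under median centring the median of the 39 genes at 1 h with B. clausii turns to -0.37.

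Herpud1 had the largest change of the 39 genes in time. It encodes an ER membrane protein with a ubiquitin-like domain that assembles with the Syvn1 ubiquitin ligase. Its ratios were 0.99, 0.83, -0.41 and -1.18 after L. acidophilus and 1.13, 0.91, -0.24 and -1.19 after B. clausii. At 1 h the signal of treated cells was 1.99-fold that of untreated cells on the L. acidophilus array and 2.20-fold on the B. clausii array, and at 6 h 0.44-fold on each. Both bacteria gave nearly the same value at each time. The late response was lower than the early one, with a difference of -1.72 ± 0.059 (adjusted p = 3.23e-06) in limma, or 0.30-fold, and Herpud1 alone among the 39 genes was past 1.5-fold in both directions. For 4 h minus 2 h it was the 1 member called lower (0.413% of all genes), at -1.19 ± 0.083 (adjusted p = 0.00150), and 0 were called higher (1.03%). At an unadjusted p under 0.05 there were 2 higher and 6 lower (12.6% of all genes in either direction). The call of Herpud1 was lost with the processed signals, while its difference lay between -1.25 and -1.12 in the other settings run. The step from 4 to 6 h was -0.86 ± 0.083 (adjusted p = 0.00684) in limma. Since the course crosses 0, its mean over times was near 0, at 0.058 ± 0.041 with L. acidophilus and 0.15 ± 0.041 with B. clausii.

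The signals of the single channels show where the ratio of Herpud1 moved. In treated cells its log2 signal was 13.17, 13.12, 12.11 and 11.18 at 1, 2, 4 and 6 h with L. acidophilus, against 12.18, 12.29, 12.52 and 12.36 in untreated cells. With B. clausii it was 13.45, 13.26, 12.17 and 10.89 in treated cells and 12.32, 12.35, 12.41 and 12.08 in untreated cells. The late minus early difference was thus -1.66 in treated cells and 0.057 in untreated cells.

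Hspa5 had another pattern. Its log2 signal was 13.51, 15.33, 15.55 and 15.42 in treated cells with L. acidophilus, against 12.88, 14.35, 14.69 and 15.41 in untreated cells. For B. clausii the treated cells had 14.63, 15.52, 15.68 and 15.01 and the untreated cells 13.59, 14.62, 14.95 and 14.92. Late minus early was 0.67 in treated and 1.13 in untreated cells, so the lower late ratio of Hspa5 went with a higher signal in both channels and a greater increase in the untreated one. Over the 39 genes the median late minus early was -0.24 in treated cells and -0.019 in untreated cells, against -0.0089 and -0.021 for all genes. In 32 of the 39 genes the treated channel was lower late (7629 of all 14783 genes). In 17 the untreated channel was higher late (6088 of all 14783). Levels of one channel across arrays depend on how arrays were scaled and were not tested.

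**Figure D4:**
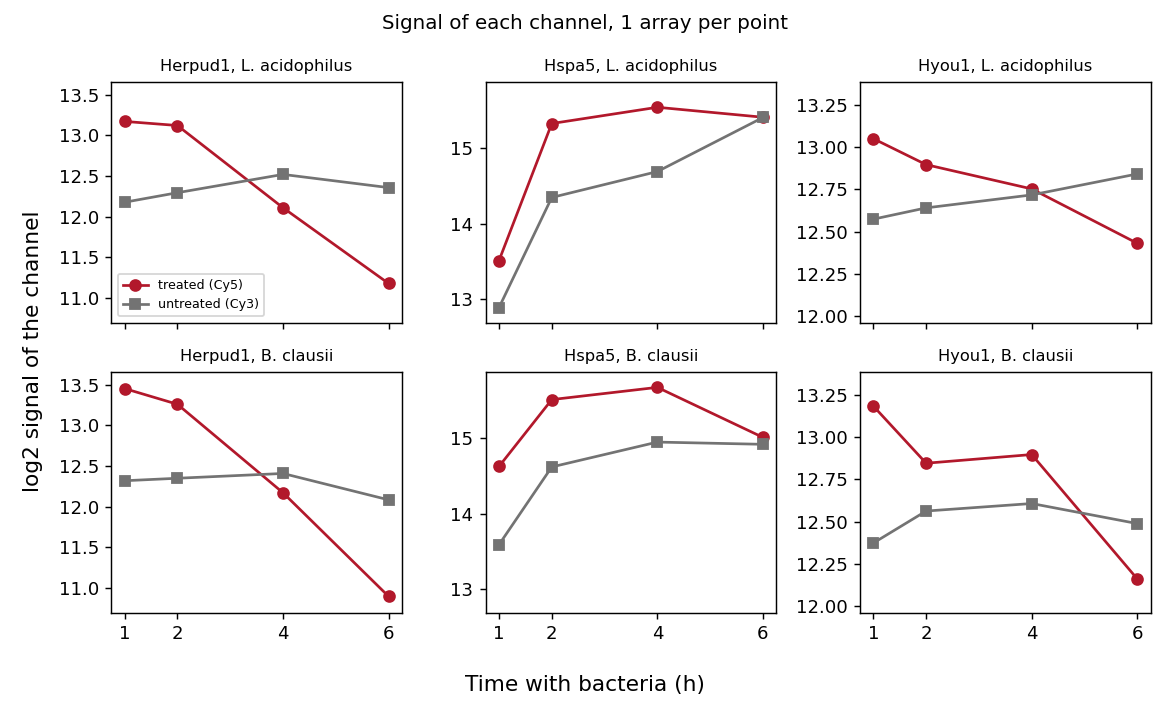
Log2 signal of the treated channel (Cy5, red circles) and the untreated channel (Cy3, grey squares) after normalization, against hours with bacteria, for Herpud1, Hspa5 and Hyou1 (columns) with L. acidophilus (upper row) and B. clausii (lower row), 1 array per point. For Herpud1 the treated signal drops while the untreated signal stays between 12.08 and 12.52. For Hspa5 both signals are higher late, and they meet at 6 h.

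Of the 11 measured ERAD genes 7 were lower late. Syvn1, the ubiquitin ligase Hrd1 at the centre of the ERAD complex, had 0.68, 0.39, 0.11 and -0.41 on the L. acidophilus arrays and 0.81, 0.47, 0.12 and -0.020 on the B. clausii arrays. Each later time had a lower value with both bacteria, with late minus early at -0.64 ± 0.073 (adjusted p = 0.000843) in limma, whereas a second probe gave -0.092. Edem1, which trims mannose of misfolded glycoproteins, stood at 0.53, 0.30, 0.15 and -0.34 after L. acidophilus and 0.70, 0.44, 0.15 and -0.42 after B. clausii. Late minus early for Edem1 was -0.61 ± 0.064 (adjusted p = 0.000603) in limma, with the 3 kept probes between -0.61 and -0.036. By their brightest probes both genes were above 0 at 1, 2 and 4 h and below 0 at 6 h with each bacterium. A second probe of Edem1, nearly as bright, was below 0 at all times with L. acidophilus, between -0.19 and -0.033. The third and dimmest probe of Edem1 had the same signs as the brightest. By the processed signals Syvn1 was at -0.011 at 4 h with L. acidophilus and at 0.036 at 6 h with B. clausii.

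Selenok, a selenoprotein of the ER membrane that binds the ERAD complex, had ratios of 0.34, 0.40, 0.35 and -0.12 on the L. acidophilus arrays and 0.57, 0.38, 0.29 and -0.25 on the B. clausii arrays. In limma late minus early was -0.36 ± 0.071 (adjusted p = 0.00833). Sel1l, the adaptor of Syvn1, was lower late, at -0.41 ± 0.078 (adjusted p = 0.00662), although its 3 probes ranged up to 0.14. Vimp (now Selenos, a partner of the Derlin proteins) and Derl1, a Derlin of the ER membrane, differed by -0.33 ± 0.070 (adjusted p = 0.0103) and -0.30 ± 0.061 (adjusted p = 0.00969). The 4 probes of Derl1 ranged from -0.36 to 0.16.

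Not all ERAD genes followed. Os9, a lectin that delivers glycoproteins to Sel1l, had 0.36, 0.47, 0.56 and 0.31 after L. acidophilus and 0.40, 0.65, 0.64 and 0.63 after B. clausii. It was above 0 on every array with no drop at 6 h with B. clausii, and late minus early was 0.066 ± 0.064 (adjusted p = 0.503). Edem3, of the same mannosidase family as Edem1, was at 0.38, 0.30, 0.10 and 0.35 on the L. acidophilus arrays and 0.21, 0.15, 0.00026 and 0.26 on the B. clausii arrays, lowest at 4 h with both bacteria. Its difference was -0.079 ± 0.055 (adjusted p = 0.334), and those of Edem2 and Derl2 were -0.030 and -0.11, with none past the threshold. A p above the threshold does not show that these genes were constant.

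None of the 4 sensor genes passed the late minus early test. Averaged over the 4 times, Ern1 was called higher with L. acidophilus, at 0.13 (23.7% of all genes were). With B. clausii Ern1 and Xbp1 were called higher, at 0.14 and 0.16 (23% of all genes were). Such means include any constant dye effect, and both B. clausii means turned below 0 with median centring. Xbp1, the transcription factor whose RNA Ire1 splices, had -0.021, 0.10, 0.033 and -0.15 after L. acidophilus and 0.092, 0.24, 0.16 and 0.15 after B. clausii. Atf6, the membrane-bound transcription factor, had 0.10, 0.022, 0.059 and -0.43 on the L. acidophilus arrays and 0.34, -0.064, 0.18 and -0.19 on the B. clausii arrays. Ern1, which encodes Ire1, was at 0.18, 0.078, 0.36 and -0.10 after L. acidophilus and 0.16, 0.084, 0.27 and 0.034 after B. clausii. All 3 stayed within 1.5-fold of untreated cells on every array.

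Eif2ak3, which encodes Perk, gave 0.21, -0.030, 0.28 and -0.31 on the L. acidophilus arrays and 0.014, -0.067, 0.23 and 0.044 on the B. clausii arrays. Ern1 and Eif2ak3 were both highest at 4 h with each bacterium, a course unlike that of the chaperones. Late minus early was -0.057 ± 0.059 for Xbp1, -0.20 ± 0.070 for Atf6, 0.016 ± 0.060 for Ern1 and 0.028 ± 0.087 for Eif2ak3, with adjusted p of 0.529, 0.0722, 0.876 and 0.852 in limma. The 2 probes of Atf6 had opposite signs, at -0.20 and 0.11.

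The 8 translocation genes were mixed, with 3 lower late and 1 higher. Ssr3, a subunit of the translocon-associated protein complex, had 0.42, 0.34, 0.37 and 0.10 after L. acidophilus and 0.66, 0.50, 0.49 and 0.24 after B. clausii and differed by -0.18 ± 0.056 (adjusted p = 0.0456) in limma. Its sign turned with median centring (0.025), and its 3 probes ranged from -0.42 to 0.23. Ssr2, of the same complex, was lower late, at -0.34 ± 0.081 (adjusted p = 0.0158), as was the channel subunit Sec61b, at -0.26 ± 0.075 (adjusted p = 0.0341). Sec61a1, which forms the pore itself, had 0.20, 0.35, 0.34 and 0.089 on the L. acidophilus arrays and 0.38, 0.42, 0.44 and 0.17 on the B. clausii arrays and did not pass at -0.075 ± 0.055 (adjusted p = 0.361).

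Spcs1, a subunit of signal peptidase, was the one gene higher late. Its ratios were -0.39, -0.088, -0.088 and -0.0091 after L. acidophilus and -0.38, -0.14, -0.13 and -0.014 after B. clausii, below 0 on all 8 arrays and furthest from 0 at 1 h. By limma it differed by 0.19 ± 0.054 (adjusted p = 0.0345), and -0.027 with the deposited processed ratios. Ssr1, Ssr4 and Spcs2 had differences between 0.0038 and 0.051, and none passed. Other probes went lower late, since the 5 kept probes of Ssr1 ranged from -0.52 to 0.018 and a second probe of Spcs2, nearly as bright, gave -0.42.

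**Figure D5:**
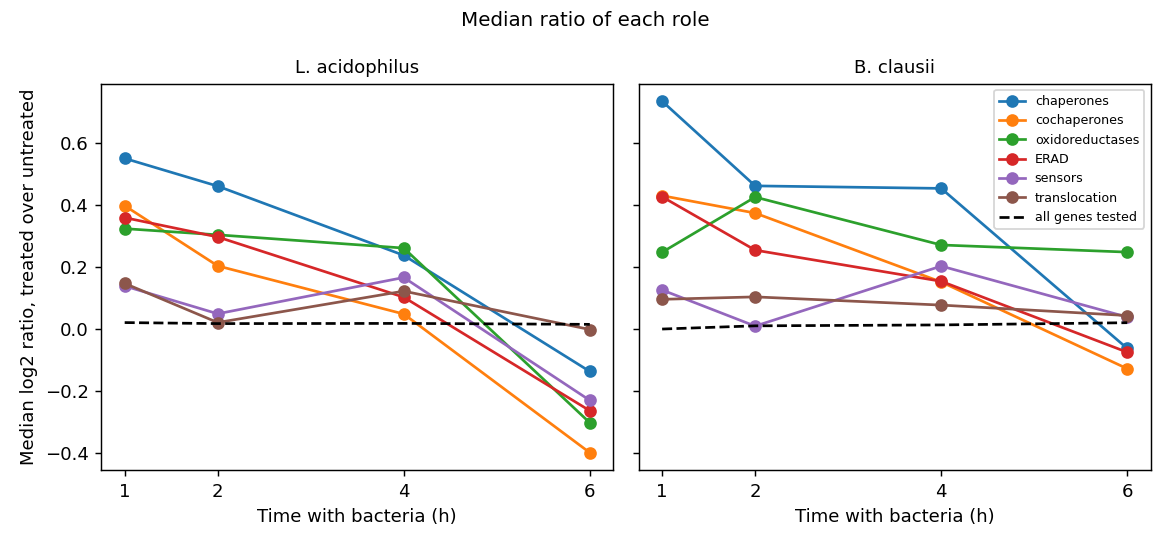
Median log2 ratio of treated over untreated cells for the genes of each role, against hours with bacteria, with L. acidophilus on the left and B. clausii on the right. The dashed line is the median of all genes tested. Medians of chaperones, cochaperones and ERAD genes lie below 0 at 6 h with both bacteria, and those of oxidoreductases and sensors with L. acidophilus but not with B. clausii. The chaperone median is -0.062 on the 6 h array of B. clausii. With the processed signals every chaperone but Calr is above 0 on that array. With median centring the median of all 39 genes turns to -0.37 at 1 h with B. clausii.

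The median step of the 39 genes was -0.094 between 1 and 2 h, -0.070 between 2 and 4 h and -0.33 between 4 and 6 h. In 32 of the 39 genes the 6 h value was lower than the 4 h value with both bacteria (32.3% of all genes). The test of 6 h minus 4 h called 9 genes lower (2.19% of all genes) and 0 higher (1.35%), with 25 lower and 1 higher at an unadjusted p under 0.05 (21.9% of all genes in either direction). The 9 were Herpud1, Hspa5, Manf, Hyou1, Edem1, Selenok, Pdia6, Dnajb9 and Dnajc3, with differences between -0.86 and -0.45 and adjusted p between 0.00684 and 0.0371 in limma. Each time has 1 array per bacterium, and the count was 0 without the 4 h L. acidophilus or the 4 h B. clausii array, 2 without either 2 h array, 3 without the 6 h B. clausii array and 0 with the processed signals. Shares of all genes called in those settings are not given. For 2 h minus 1 h limma called 0 members, with 2 higher and 8 lower at an unadjusted p under 0.05 (15.4% of all genes in either direction). In 18 genes both 1 h arrays were above 0 and both 6 h arrays below 0 (10.2% of all genes).

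Within each bacterium, and so within each slide, the late minus early difference rests on 2 arrays against 2. Limma called 0 of the 39 genes with L. acidophilus (0.0744% of all genes were called higher and 0.0338% lower) and 0 with B. clausii (0.142% higher and 0.0676% lower). At an unadjusted p under 0.05 there were 12 with L. acidophilus (11.4% of all genes in either direction) and 11 with B. clausii (17.7%), all of them lower. Without both 4 h arrays 8 were called with L. acidophilus and 10 with B. clausii, and without the 4 h B. clausii array 10 with B. clausii. The share of all genes called without those arrays is not given, so the 8 and 10 are not read as particular to the members. With all arrays, the median difference was -0.28 with L. acidophilus and -0.22 with B. clausii. Herpud1 had the smallest p in both, at -1.71 ± 0.29 (adjusted p = 0.0652) with L. acidophilus and -1.74 ± 0.29 (adjusted p = 0.0526) with B. clausii. The interaction of bacterium and phase called 0 genes in limma, and at an unadjusted p under 0.05 it had 0 of the 39 genes and 1.18% of all genes.

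Averaged over the 4 times, 15 genes were higher with L. acidophilus (23.7% of all genes) and 2 lower (18.5%). With B. clausii 24 were higher (23% of all genes) and 3 lower (21.1%). The members' median was 0.091 with L. acidophilus and 0.17 with B. clausii. These means include any constant dye effect. Centred on the array median, all 15 genes higher with L. acidophilus kept their direction and 8 remained called, whereas of the 24 higher with B. clausii 7 kept it and 8 were called lower. Without a time term 8 genes were called with L. acidophilus and 7 with B. clausii. Leaving out the 4 h or the 2 h L. acidophilus array left 9 or 11 calls with L. acidophilus, leaving out both 6 h arrays gave 28, and leaving out the 2 h B. clausii array or both 2 h arrays left 16 or 17 with B. clausii. Shares of all genes called in these other settings are not given, so the counts there are not read as particular to the members.

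Above 0 on all 8 arrays lay 8 of the 39 genes (12.5% of all genes), namely Hspa5, Hsp90b1, Pdia6, P4hb, Os9, Edem3, Ssr3 and Sec61a1, each by its brightest probe. Hspa5, P4hb, Os9 and Edem3 have 1 kept probe, whereas for the other genes 1 of 2 kept probes of Hsp90b1, 2 of 4 of Pdia6, 1 of 3 of Ssr3 and 1 of 3 of Sec61a1 lay above 0 on all arrays. With the processed signals the 6 h value with L. acidophilus was below 0 for Hspa5 (-0.11), Hsp90b1 (-0.25), P4hb (-0.17) and Sec61a1 (-0.028). Pdia6 averaged 0.56 ± 0.041 with L. acidophilus and 0.73 ± 0.041 with B. clausii, and Hspa5 0.62 ± 0.064 and 0.69 ± 0.064 in the same order. The other kept probes of Pdia6 averaged less, between -0.018 and 0.38 with L. acidophilus and between -0.096 and 0.38 with B. clausii. For P4hb the means were 0.35 ± 0.048 and 0.65 ± 0.048, and for Os9 0.43 ± 0.046 and 0.58 ± 0.046. The members lower on average were Ssr2 and Spcs1 with both bacteria and Dnajb9 with B. clausii, at -0.33 ± 0.047 (adjusted p = 0.000715) in limma. The other 2 probes of Dnajb9 averaged -0.12 and -0.017 with B. clausii. Of the B. clausii means, those of Edem3 and Sec61a1 turned below 0 with median centring.

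No member passed the test of the difference between the bacteria, which does not show that they act alike. Limma called 0 genes higher (0.446% of all genes) and 0 lower (0.196%) for L. acidophilus minus B. clausii, while 2 were higher and 11 lower at an unadjusted p under 0.05 (22.7% of all genes in either direction). Dnajb9 was the most different, at 0.34 ± 0.067 (adjusted p = 0.0618), followed by P4hb at -0.31 ± 0.067 (adjusted p = 0.0757) and Sdf2l1 at -0.26 ± 0.062 (adjusted p = 0.0850). P4hb, with 1 kept probe, was lower with L. acidophilus at all 4 times. Dnajb9 was higher at all 4 times on its brightest probe, at 3 of 4 on the second and at 0 of 4 on the third, whose means were -0.17 with L. acidophilus and -0.017 with B. clausii, so its difference between bacteria rests on 1 of 3 probes. With median centring 11 of the 39 genes were called, and with a filter on both channels 2. Median centring also moved the median of all genes, to -0.46 on the 1 h array of B. clausii. The share of all genes called in these settings is not given, so the counts are not read as particular to the members. Slide and bacterium cannot be told apart here.

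The genes with an ERSE or ERSE-II match can be set beside those without one. All 9 measured genes with a match were lower late than early, with a median of -0.43 and a range from -1.72 to -0.30. Among the 24 measured genes whose window had no match 8 were lower and 1 higher, with a median of -0.15. These calls come from the fit with bacterium and time. With the 2 times of a phase as the spread, only Herpud1 and Syvn1 were called among the genes with a match. Dnajb9, Edem1, Sdf2l1 and Sel1l, also called lower in that fit, have windows without a match. The match was not used to choose the genes, but many of them are known targets of these elements. Outside the 39 genes, 8 measured genes held an ERSE, of which 3 were lower late (Alg12, Ero1b and Hnrnpa3), against 13.2% of 10345 genes with a window. Of 5 measured genes with an ERSE-II, 1 was lower late (Rbm39). Dnajb9 and Edem1, both among the 5 genes with the largest change, have windows without either element.

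Other genes of the pathway came from lists of related function. Of 34 measured other ER folding genes 13 were lower late (12.3% of all genes) and 0 higher (12.2%), with a median of -0.13. With the 2 times of a phase as the spread 3 were lower (2.75% of all genes), among them Mogs. Dnajc10, a J protein that reduces disulfides, differed by -0.60 ± 0.15 (adjusted p = 0.0200). Mogs, which trims the first glucose of N-glycans, had 0.70, 0.45, 0.12 and -0.14 on the L. acidophilus arrays and 0.80, 0.50, 0.26 and -0.20 on the B. clausii arrays and differed by -0.60 ± 0.059 (adjusted p = 0.000467). Ppib, the ER cyclophilin, had 0.36, 0.25, -0.046 and -0.44 after L. acidophilus and 0.60, 0.090, 0.055 and -0.61 after B. clausii and differed by -0.58 ± 0.080 (adjusted p = 0.00182) in limma. Mogs and Ppib were above 0 at 1 and 2 h and below 0 at 6 h with both bacteria.

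Of 31 measured other ERAD genes 5 were higher late (12.2% of all genes) and 1 lower (12.3%), with a median of 0.063, and 25 did not pass. With the 2 times of a phase as the spread limma called 0 of them, and at an unadjusted p under 0.05 there were 5 higher and 1 lower (25.6% of all genes passed either way). Ufm1, a ubiquitin-like modifier, was higher late by 0.38 ± 0.070 (adjusted p = 0.00606), Erlec1, a lectin related to Os9, by 0.25 ± 0.059 (adjusted p = 0.0147), and Faf1, a cofactor of the p97 ATPase, by 0.25 ± 0.069 (adjusted p = 0.0296). Aup1, which recruits an ubiquitin-conjugating enzyme to the ERAD complex, was lower, at -0.21 ± 0.057 (adjusted p = 0.0268). One of the 5 higher genes, Vcp, which encodes p97, turned with the processed signals.

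Of 32 other genes for signal recognition, translocation, signal peptidase and oligosaccharyl transfer 11 were lower late (12.3% of all genes) and 2 higher (12.2%), with a median of -0.099. With the 2 times of a phase as the spread limma called 0 lower (2.75% of all genes) and 1, Srp9, higher (2.87%), and at an unadjusted p under 0.05 there were 11 lower and 3 higher. Spcs3 and Sec11a, both subunits of signal peptidase like Spcs1, were lower, at -0.41 ± 0.073 (adjusted p = 0.00520) and -0.38 ± 0.067 (adjusted p = 0.00470), the direction opposite to that of Spcs1. Magt1, a subunit of oligosaccharyl transferase, was lower, at -0.47 ± 0.082 (adjusted p = 0.00458). Srp9, of the signal recognition particle, and Tram2, a translocon protein, were higher by 0.47 ± 0.061 (adjusted p = 0.00141) and 0.34 ± 0.068 (adjusted p = 0.00863).

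In the branch of the response that runs through Perk and Atf4, 9 of 24 genes were lower late (12.3% of all genes) and 1 higher (12.2%), with a median of -0.064. With the 2 times of a phase as the spread 3 were lower (2.75% of all genes), namely Atf3, Chac1 and Ddit3. Ddit3 encodes Chop, the transcription factor linked to cell death under ER stress. Its ratios were 0.51, 0.44, -0.63 and -0.74 on the L. acidophilus arrays and 0.63, 0.58, -0.46 and -0.65 on the B. clausii arrays, with all 4 early arrays above 0 and all 4 late arrays below it. Late minus early was -1.16 ± 0.055 (adjusted p = 3.13e-05), and within single bacteria -1.16 ± 0.11 (adjusted p = 0.00602) with L. acidophilus and -1.16 ± 0.11 (adjusted p = 0.00621) with B. clausii. Like Herpud1, Ddit3 turned between 2 and 4 h.

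Chac1, an enzyme that degrades glutathione and a target of Atf4 and Chop, had 0.68, 0.43, -1.44 and -0.37 after L. acidophilus and -0.25, 0.18, -1.11 and -1.41 after B. clausii and differed by -1.35 ± 0.19 (adjusted p = 0.00221), with the bacteria far apart at 1 and 6 h. Ddit4, an inhibitor of mTORC1, had 1.10, 1.01, 0.58 and -0.20 on the L. acidophilus arrays and 1.26, 1.33, 1.21 and 0.051 on the B. clausii arrays and differed by -0.76 ± 0.081 (adjusted p = 0.000603). Phgdh, the first enzyme of serine synthesis, was the one gene higher late at 0.31 ± 0.075 (adjusted p = 0.0175). Averaged over times, 12 of the 24 genes were lower (18.5% of all genes) and 5 higher (23.7%) with L. acidophilus, and 7 were lower (21.1%) and 4 higher (23%) with B. clausii. One gene lower late, Nupr1, turned with the processed signals.

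Of 29 measured stress transducers and ER membrane stress genes 8 were lower late (12.3% of all genes) and 4 higher (12.2%), with a median of -0.031. With the 2 times of a phase as the spread 2 were lower (2.75% of all genes) and 1, Traf2, higher (2.87%). Itpr1, a calcium channel of the ER, was lower, at -0.90 ± 0.10 (adjusted p = 0.000843), as were Bbc3, which encodes the cell death protein Puma, at -0.85 ± 0.064 (adjusted p = 0.000217) and Nfyb, a subunit of Nfy, at -0.43 ± 0.089 (adjusted p = 0.00963). Traf2, an adaptor of Ire1 and of TNF receptors, was higher by 0.44 ± 0.062 (adjusted p = 0.00199), Nfya, another Nfy subunit, by 0.39 ± 0.072 (adjusted p = 0.00606) and Rtcb, the ligase that joins spliced Xbp1 RNA, by 0.21 ± 0.063 (adjusted p = 0.0406). The 2 Nfy subunits thus went in opposite directions. All the late minus early calls named from these lists kept their direction with median centring and with scaling between arrays.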

How the data were processed

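Members and lists were chosen with earlier results of these data known. The data are 8 two-colour Agilent arrays, 1 per bacterium and time, with treated RNA in Cy5 and time-matched untreated RNA in Cy3 per the labels. Each deposited spot intensity is a mean foreground or a median local background of 1 channel per the file headers, which name Feature Extraction 10.7.3.1, against 10.5.1.1 in the submitters' processing notes. The deposited log10 ratios of red over green were computed by that software per the file headers, and the deposited series table repeats them (r of 0.999999 on each array), with a median of 0 in each column.

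Local backgrounds that the software had marked as outliers and that lay above 3 times the median of the array were set to that median. Intensities were corrected with normexp (offset 50), log2 ratios were normalized by loess within arrays in limma 3.58.1 under R 4.3.3 (data.table (1.17.8), statmod 1.5.0), and spots with an outlier flag, 0.473% to 0.89% of an array, had weight 0. The deposited log10 ratios were turned to log2 for comparison. Kept were 21274 of 41174 probes, those well above background on 2 or more arrays in either channel, and each gene was read from its brightest probe. Probe names came from RefSeq (assembly GRCm38.p6) by accession (27599 probes), another accession (91) or symbol (6126), 7281 kept the name in the file, and 77 probes were those of the members.

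Limma (lmFit, eBayes, Benjamini-Hochberg over 14783 genes, adjusted p under 0.05) fitted bacterium and time, leaving 3 residual degrees of freedom, with a prior SD of 0.0938 on 5.80 prior degrees of freedom. Late minus early per bacterium and the interaction came from 4 groups of bacterium and phase with 4 residual degrees of freedom and a prior SD of 0.126 on 6.37. Neither spread holds scatter between cultures. Values after ± are standard errors. Single arrays were described by a 1.5-fold rule. Members given with values on all arrays are those with the 8 largest changes called in each contrast, the 4 sensors and any past 1.5-fold in both directions; up to 3 called genes per direction were named from each other list. Channel signals were taken after loess within arrays and quantile normalization of the mean spot intensities between arrays, a step that leaves the ratios unchanged. The scripts were tested on simulated data. The alternatives tried are given with their effects in the closing section.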

Additional observations from a re-analysis of the deposited data

How the results depend on the processing

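With the processed signals or the series matrix values 12 members were called for late minus early, with a normexp offset of 0 or local backgrounds as deposited 13, with median centring 8 and with the 4-group fit 6, against 22; in the processed signals and in the matrix Spcs1 turned to -0.027 and with median centring Ssr3 to 0.025. Leaving out arrays or times gave 5 to 23. Of the 26 settings 17 stayed within 1.5 times the count. For 6 h minus 4 h the count of 9 became 0 with the processed signals, the matrix or offset 0, 1 with local backgrounds as deposited, 2 with no bacterium term, 4 with no filter, 15 with a filter on both channels or adjusted p under 0.1, and 0 to 10 when arrays or times were left out. For 4 h minus 2 h the count of 1 became 0 with the processed signals, the matrix or offset 0 and 2 with the mean over probes or adjusted p under 0.1, and the members' median turned to 0.027 with median centring. The 17 calls for L. acidophilus became 8 without the time term and 9 to 28 when arrays or times were left out. The 27 for B. clausii became 17 with local backgrounds as deposited, 7 without the time term, and 16 to 29 when arrays or times were left out. The count of 0 for L. acidophilus minus B. clausii became 11 with median centring, 2 with a filter on both channels and 3 at adjusted p under 0.1. Late minus early within L. acidophilus and within B. clausii went from 0 to 1 with scaling between arrays, a filter on both channels or adjusted p under 0.1, and to at most 8 and 10 when arrays or times were left out. Apart from the 4-group fit, shares of all genes called in these settings are not given. The counts are therefore not read as particular to the members.

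With median centring the B. clausii means turned below 0 for the members' median (-0.20), Hyou1 (-0.17), Calr (-0.11), Canx (-0.20), Sdf2l1 (-0.27), Creld2 (-0.074), Dnajc3 (-0.087), Pdia4 (-0.19), Herpud1 (-0.29), Edem1 (-0.20), Edem3 (-0.26), Syvn1 (-0.033), Derl1 (-0.27), Vimp (-0.11), Selenok (-0.14), Xbp1 (-0.30), Ern1 (-0.089), Sec61a1 (-0.091), Atf6 (-0.38) and Eif2ak3 (-0.36). With the mean over probes Calr (-0.074) and Derl1 (-0.030) turned, and when arrays or times were left out Herpud1 ranged from -0.17 (without both 1 h arrays) to 0.60 (without both 6 h arrays), with -0.097 without both 2 h arrays. At 2-fold, 0 members were past the fold on the L. acidophilus arrays of 1, 2 and 4 h, and 4, 0, 0 and 1 on the B. clausii arrays in time order. By the processed signals 2, 1 and 3 were past 1.5-fold on the L. acidophilus arrays of 2, 4 and 6 h, and 2 on the B. clausii array of 4 h. The cause of these changes was not tested. The interaction and 2 h minus 1 h called 0 members in every setting run. No paired analysis was possible because each bacterium and time has 1 array, so groups share fewer than 2 replicate numbers; the fit with bacterium and time sets the bacteria against each other at the same time.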

Other observations

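The untreated channel of Hspa5 differed more between early and late arrays than that of any other of the 39 genes. Late minus early in untreated cells was 1.13 for Hspa5, followed by 0.40 for Dnajc3 and 0.37 for Sec61a1, against a median of -0.019 over the 39 genes and -0.021 over all genes. At 1 h the untreated log2 signal of Hspa5 was 12.88 on the L. acidophilus slide and 13.59 on the B. clausii slide, and at 6 h it was 15.41 and 14.92. The position on the slide followed the time, and these levels were not tested.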
